A study of Homo sapiens with 13 samples.

Results

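RNA levels were compared between HEL cells carrying P95H SRSF2 and HEL cells carrying wild-type (WT) SRSF2, within pairs of libraries that bear the same replicate number. The comparison covered every gene with at least 1 CPM (a count scaled to the library total) in 2 of the 4 libraries, which kept 15167 of the 58581 genes counted. HEL is an established human erythroleukemia line with erythroid and megakaryocytic features. Each line held a stably transduced SRSF2 construct under doxycycline control, and both genotypes received doxycycline at 1 µg/ml for 48 hours before rRNA-depleted RNA was sequenced. The groups were 2 WT and 2 P95H libraries out of 13 samples in the series. The labels name no change to the endogenous SRSF2 gene and do not say whether the lines are clones. The labels call the libraries biological duplicates without describing separate cultures, so the p-values below measure the spread between these samples, which may be technical.

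SRSF2 is an SR protein: its RNA recognition motif binds short exonic sequences, and its arginine-serine tail recruits the splicing machinery. The proline at position 95 lies next to the RNA recognition motif. Substitutions there recur in myelodysplastic syndromes and related leukemias, and they are known to shift which exonic sequences the protein prefers. Gene counts of the kind used here measure how much RNA a gene gives, and not how that RNA is spliced.

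Libraries of the same replicate number resembled each other more than libraries of the same genotype. Library totals ranged from 38052389 to 45005605 counts, so that 3 counts were worth 0.0667 to 0.0788 CPM depending on the library. Log2 CPM correlated across genes at r = 0.9951 in each pair of equal number, against r = 0.9845 between the WT libraries and r = 0.9868 between the P95H libraries. Genes are not independent replicates, so these values only describe the libraries. Mitochondrially encoded protein genes took 1.38% of counts in both replicate 1 libraries, 4.50% in WT replicate 2 and 4.30% in P95H replicate 2, so this share moved with the number and not with the genotype. The SD over genes of the P95H minus WT difference was 0.25 in pair 1 and 0.26 in pair 2 on the log2 scale, while that of replicate 2 minus replicate 1 was 0.447 in WT and 0.403 in P95H. Genes at the edge of the filter were DNLZ and HSPA1A, each with a second-highest library at 1.0085 CPM, and just outside it CACNA1F and CHAD, each at 0.9999 CPM.

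With the replicate number as a block, edgeR's quasi-likelihood test called 29 genes higher and 30 genes lower in P95H at a Benjamini-Hochberg adjusted p under 0.05. These are 0.191% and 0.198% of the genes tested. At an unadjusted p under 0.05 there were 1316 genes, where 758.4 would be 5% of those tested. This excess depended on the tool, since the DESeq2 Wald test with the block had 279 genes under that p. The block carried the calls: without it edgeR called 0 genes in either direction, with 110 at an unadjusted p under 0.05. The balance of directions also depended on the scaling of the libraries, since DESeq2 size factors gave 5 higher and 13 lower and upper-quartile scaling gave 22 higher and 17 lower. In each of the 9 alternative fits, all of the 59 genes that entered it kept the sign of their difference. These fits used the same libraries that selected the genes, so the kept signs are no test of the calls. The block leaves 1 residual degree of freedom, so each gene's error rests almost wholly on the spread shared across genes.

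Across the whole table the pairs shared little of their P95H minus WT difference. Of the 15167 genes, 4137 were higher in P95H in both pairs, 3897 were lower in both and 7133 went opposite ways, so that 52.97% had the same sign. Pearson's r between the pairs was 0.154 over all genes and 0.017 over the 2430 genes with a mean of at least 100 CPM, values that describe genes and not samples. A difference over 0.5 in both pairs was seen in 152 genes upward and 26 downward, with 95 past that size in opposite directions. The called genes lie at the edges of this cloud, as the plot of pair 2 against pair 1 shows.

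**Figure D1:**
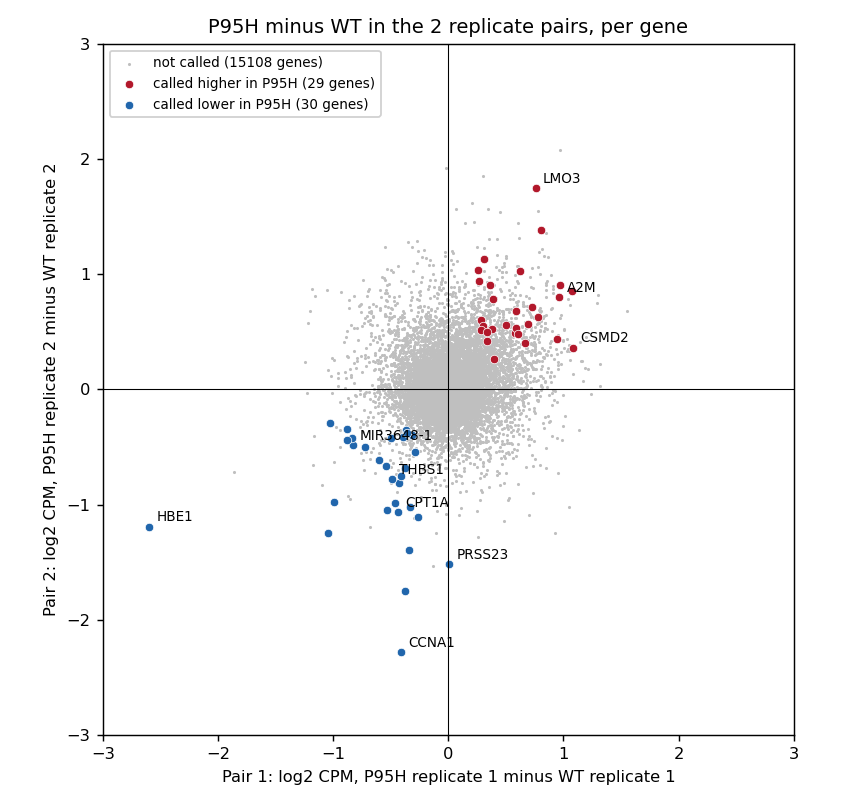
Log2 difference P95H minus WT in pair 1 (x axis) and pair 2 (y axis), 1 point per gene tested. Grey points were not called, red points are the 29 genes called higher and blue points the 30 called lower by edgeR with the replicate block. All called genes but PRSS23, at 0.008 in pair 1, have the same sign in both pairs.

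SRSF2, the transduced gene (ENSG00000161547; GRCh38 chromosome 17, minus strand, 76734115 to 76737374), was near the same level in the 4 libraries. It stood at 222 CPM in WT and 227 CPM in P95H in pair 1, and at 239 CPM and 253 CPM in pair 2. The blocked log2 difference was 0.06 (SE 0.07, edgeR adjusted p 0.9097). These counts hold the construct and the endogenous gene together. MFSD11, which lies against it on the other strand, stood at -0.08 (SE 0.10, edgeR adjusted p 0.911). Of the 15 SR protein genes tested, 11 were above 0, against 49.58% of all genes, and none was called, with a median of 0.07.

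Some sequences bear on the results that follow. RefSeq holds promoters, taken as 250 bases before to 50 after the RefSeq start of a gene, for 31 of the 59 called genes. Shown here are those of FCER1A and CPA3, the mast cell genes that rose together, and of CXCL8, an inflammatory gene that fell. They are in build GRCh38.p14, plus strand, written 5′ to 3′ in lower case. Capitals mark the GATA motif AGATAA or its reverse complement in the first 2, and the AP-1 motif TGANTCA and the kappa-B motif GGANTTTCC in the last.
FCER1A promoter, chr1:159302086-159302385: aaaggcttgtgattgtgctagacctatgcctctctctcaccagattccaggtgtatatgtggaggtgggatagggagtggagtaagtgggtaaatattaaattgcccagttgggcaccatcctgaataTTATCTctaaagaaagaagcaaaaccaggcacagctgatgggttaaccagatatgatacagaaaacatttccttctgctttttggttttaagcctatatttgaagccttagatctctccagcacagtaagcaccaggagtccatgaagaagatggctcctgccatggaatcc
CPA3 promoter, chr3:148865046-148865345: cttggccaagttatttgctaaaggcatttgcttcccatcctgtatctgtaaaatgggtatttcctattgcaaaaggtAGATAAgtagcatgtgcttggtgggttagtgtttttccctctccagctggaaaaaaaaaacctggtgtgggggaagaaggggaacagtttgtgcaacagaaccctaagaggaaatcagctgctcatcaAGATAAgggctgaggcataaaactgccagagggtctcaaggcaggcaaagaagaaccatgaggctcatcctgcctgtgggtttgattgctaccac
CXCL8 promoter, chr4:73740319-73740618: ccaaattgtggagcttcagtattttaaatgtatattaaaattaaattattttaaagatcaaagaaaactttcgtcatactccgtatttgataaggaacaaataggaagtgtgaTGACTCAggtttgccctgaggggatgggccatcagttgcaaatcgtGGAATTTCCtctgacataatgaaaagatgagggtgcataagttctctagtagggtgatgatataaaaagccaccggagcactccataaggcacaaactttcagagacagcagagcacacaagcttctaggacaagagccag
hsa-miR-3648, mature, of MIR3648-2, with its seed (bases 2 to 8) in capitals: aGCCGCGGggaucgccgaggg

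The last line is the mature miRNA of a gene in the ribosomal DNA that fell, described below. Searched on both strands, the GATA motif lies in 5.586% of the 9595 promoters of tested genes and in 10.5% of all 27305 promoters in the table. It lies in 2 of the 13 promoters of genes called higher, those of FCER1A and CPA3, and in 2 of the 18 of genes called lower, those of JUN and TMPRSS3. The AP-1 motif lies in 4.554% of tested promoters and, among the called genes, in that of CXCL8 alone. The kappa-B motif lies in 1.605% of tested promoters and in those of CXCL8 and SESN2 among the called genes. The ETS motif CCGGAAG and the CRE motif TGACGTCA were searched too. ETS lies in 19.49% of tested promoters, in 0 of the 13 of rises and in 1 of the 18 of falls. CRE lies in 3.262% of tested promoters and in 0 of those of called genes. A match describes the letters of these windows and not binding. The FCER1A window lies inside the span over which that gene was counted, 159289714 to 159308224, and not at its first base.

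Among the falls were genes of platelet function. ITGB3 (chromosome 17, 47253846 to 47311816, plus strand) encodes the beta-3 integrin subunit, which forms the platelet fibrinogen receptor with the product of ITGA2B. It stood at 113 CPM in WT and 74.2 CPM in P95H in pair 1, and at 192 CPM and 125 CPM in pair 2. P95H was thus the lower library in each pair, yet P95H replicate 2 lay above WT replicate 1, so that the groups overlapped. The blocked log2 change was -0.61 (SE 0.07, edgeR adjusted p 0.000155). ITGA2B, at 499 to 595 CPM, was not called and stood at 0.15 (SE 0.08, edgeR adjusted p 0.629).

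THBS1 (chromosome 15, 39581079 to 39599466, plus strand) encodes thrombospondin-1, a matrix glycoprotein stored in platelet granules, and had the highest CPM of the called genes, on a scale that takes no account of gene length. It stood at 1628 CPM in WT and 1158 CPM in P95H in pair 1 and at 4988 CPM and 2908 CPM in pair 2. Both replicate 2 libraries were above both replicate 1 libraries, whatever the genotype. The blocked change was -0.64 (SE 0.10, edgeR adjusted p 0.00158). A tested sense-intronic transcript within THBS1, CTD-2033D15.2, stood at -0.53 and was not called.

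PLEK encodes pleckstrin, the main protein kinase C substrate of platelets. It went from 842 CPM in WT to 651 CPM in P95H in pair 1, and from 1018 CPM to 797 CPM in pair 2, and here both P95H libraries lay below both WT libraries. PRKCB, which encodes a protein kinase C isoform of blood cells, did the same, from 275 to 221 CPM and from 345 to 262 CPM. Both fell by 0.36 on the log2 scale, with edgeR adjusted p of 0.0335 for PLEK and 0.0227 for PRKCB. TUBB1, the beta-tubulin of the platelet marginal band, fell by 0.43 and PDE5A, a cyclic GMP phosphodiesterase present in platelets, fell by 0.46, with groups that overlapped for each.

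In all, 4 of the 23 megakaryocyte and platelet genes tested were called lower and 0 higher, namely ITGB3, THBS1, PLEK and TUBB1, against 0.198% called lower over all genes. This list was chosen with earlier results of these data known, so the share of calls only describes its members. The list median was -0.10, with -0.08 in pair 1 and 0.00 in pair 2, and 17 of 23 members were below 0, against 50.42% of all genes and a median over all genes of 0.00. Genes of the glycoprotein Ib and VI receptors did not share that direction, since GP1BA stood at 0.35 and GP6 at 0.08, neither called. FLI1, a megakaryocytic transcription factor gene, stood at -0.02 and VWF at -0.39, also not called. The list of integrins and cell adhesion held 0 calls among 22 genes tested, at a median of -0.01 that upper-quartile scaling turned to 0.02. PF4 and GP1BB had 0 counts in all 4 libraries. In bulk RNA, fewer cells of a type and less RNA per cell cannot be told apart.

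**Figure D2:**
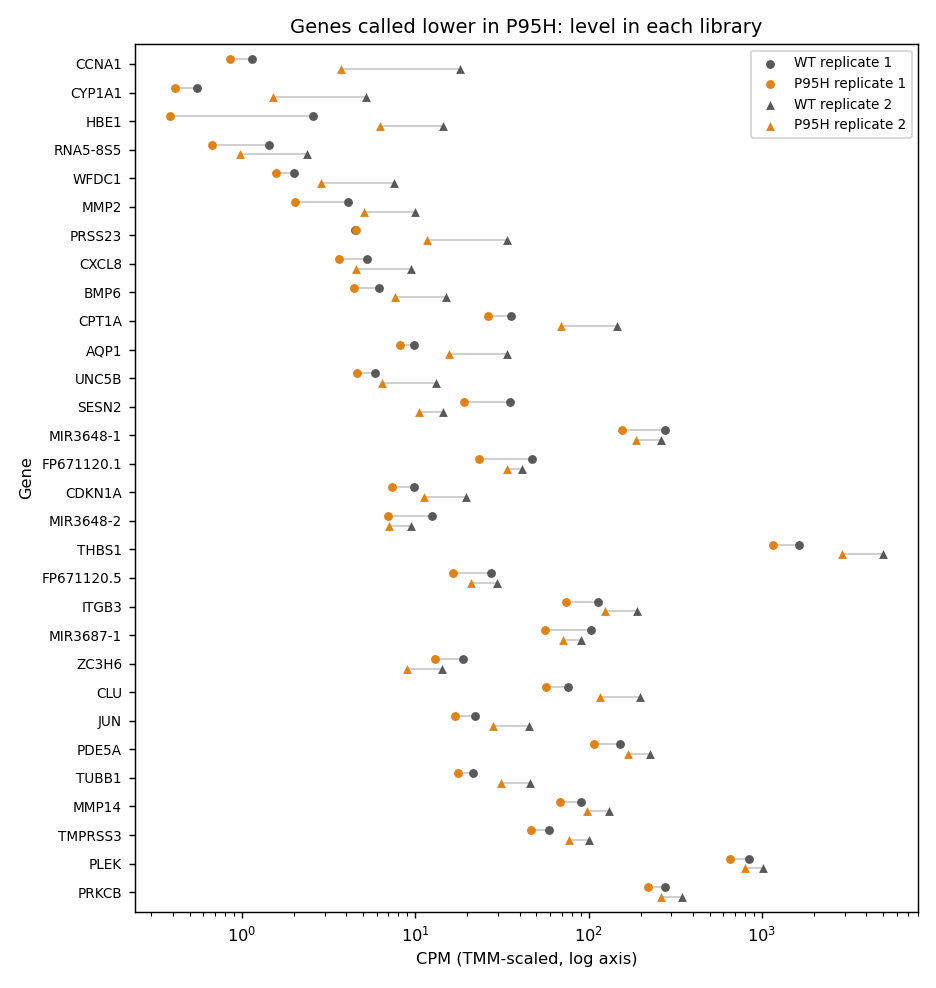
TMM-scaled CPM (log axis) of the 30 genes called lower in P95H in each of the 4 libraries, ordered by the size of the blocked change from CCNA1 (-1.95) to PRKCB (-0.36). Grey is WT and orange P95H, circles are replicate 1 and triangles replicate 2, and lines join the libraries of a pair. Most triangles lie to the right of the circles, and the orange point lies to the left of its grey partner everywhere except PRSS23 in pair 1.

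Some protease and protease-inhibitor genes were called in either direction. MMP2, the gene of gelatinase A, stood at 4.10 CPM in WT and 2.04 CPM in P95H in pair 1 and at 10.0 and 5.07 CPM in pair 2 (log2 change -0.99, SE 0.17, edgeR adjusted p 0.00586). MMP14, the gene of the membrane-bound protease that activates pro-MMP2, went from 90.4 to 68.8 CPM and from 131 to 98.5 CPM (-0.41, SE 0.08, edgeR adjusted p 0.00964). The serine protease gene PRSS23 was called lower at -0.97 on pair 2 alone, where it went from 33.7 to 11.7 CPM, while in pair 1 it stood at 4.52 and 4.54 CPM. A2M, which encodes a broad protease inhibitor, moved the other way, from 3.94 to 7.74 CPM and from 2.09 to 3.67 CPM (0.91, SE 0.18, edgeR adjusted p 0.017). WFDC1, the gene of a small secreted protein with a protease-inhibitor fold, fell by 1.05, with -0.34 in pair 1 and -1.39 in pair 2. In the list of extracellular matrix, proteases and inhibitors these were the 4 genes called lower and the 1 called higher of 21 tested, against 0.198% and 0.191% of all genes. The list was drawn up with earlier results of these data known, so its share of calls only describes its members. The list had 9 members above 0 and 12 below, at a median of -0.05, and its matrix protein genes FN1 and SPARC stood at 0.42 and -0.18 without a call.

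Genes of cell cycle arrest, stress and signalling were also among the falls. CCNA1, which encodes the cyclin A1 of germ cells and some leukemias, had the largest change at -1.95 (SE 0.24, edgeR adjusted p 0.000155). Its counts were uneven between pairs: 1.15 CPM in WT and 0.851 CPM in P95H in pair 1, against 18.2 and 3.71 CPM in pair 2. WT replicate 2 thus stood far above the other 3 libraries, and pair 1 alone gave -0.41. CDKN1A, the gene of the CDK inhibitor p21, went from 9.89 to 7.35 CPM and from 19.7 to 11.2 CPM (-0.64, SE 0.13, edgeR adjusted p 0.0224). SESN2, a stress-induced gene whose product restrains mTORC1, went from 35.4 to 19.2 CPM and from 14.4 to 10.6 CPM (-0.69, SE 0.12, edgeR adjusted p 0.0048), and unlike most falls it was higher in replicate 1. CDKN1A and SESN2 were the called members of the 16 p53 target genes tested, against 0.198% of all genes called lower. In the blocked fit 14 of the 16 were below 0, against 50.42% of all genes, with a median of -0.14. Only 8 of the 16 were lower in both pairs, against 25.69% of all genes, and the medians were -0.06 in pair 1 and -0.20 in pair 2. MDM2, a p53 target in most cells, stood at -0.06 and was not called.

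JUN, an AP-1 transcription factor gene, stood at 22.1 CPM in WT and 17.0 CPM in P95H in pair 1 and at 45.3 and 28.3 CPM in pair 2 (-0.54, SE 0.10, edgeR adjusted p 0.00964). It was the called member of 26 immediate-early and MAPK feedback genes, against 0.198% of all genes called lower. The list median was -0.06. CXCL8, the neutrophil chemokine interleukin-8, went from 5.29 to 3.64 CPM and from 9.48 to 4.55 CPM, and both P95H libraries lay below both WT libraries (-0.83, SE 0.17, edgeR adjusted p 0.0236). Of the 16 NF-kappa-B and inflammatory genes tested, CXCL8 was the member called, against 0.198% of all genes called lower. The list median was -0.11, and 12 of the 16 were below 0, against 50.42% of all genes.

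CPT1A encodes the enzyme that commits long-chain fatty acids to mitochondrial oxidation, and it stood at 35.6 CPM in WT and 26.2 CPM in P95H in pair 1 and at 145 and 69.5 CPM in pair 2. Its blocked change was -0.77 (SE 0.10, edgeR adjusted p 0.000355), while the replicate 2 libraries were above the replicate 1 libraries in both genotypes. The other 21 tested genes of fatty acid oxidation and PPAR targets were not called, where 0.198% of all genes were called lower. The list median was -0.04. CYP1A1, a monooxygenase gene, fell by 1.54, with 0.551 and 0.413 CPM in pair 1, a difference of -0.38, and 5.23 and 1.52 CPM in pair 2. AQP1, the gene of a water channel of red cells, fell by 0.75, with -0.26 in pair 1 and -1.10 in pair 2. BMP6, a growth factor gene, fell by 0.77 (-0.46 and -0.99), and UNC5B, a netrin receptor gene, by 0.73 (-0.34 and -1.02). CLU, the gene of the secreted chaperone clusterin, went from 76.0 to 57.2 CPM and from 198 to 117 CPM, a fall of 0.59. ZC3H6, a zinc finger gene, and TMPRSS3, a transmembrane serine protease gene, fell by 0.60 and 0.37.

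HBE1, the embryonic epsilon globin gene on chromosome 11, was the called member of the 27 erythroid genes tested, against 0.198% of all genes called lower. It stood at 2.58 CPM in WT and 0.387 CPM in P95H in pair 1, and at 14.4 and 6.27 CPM in pair 2 (log2 change -1.46, SE 0.21, edgeR adjusted p 0.000731). Its annotated span overlaps HBG2 on the same strand, which stood at -0.36 and was not called, and globin reads may map to more than 1 near-identical copy. Of the 27 erythroid genes tested, 24 were below 0 in the blocked fit, against 50.42% of all genes. The median was -0.12 over both pairs, -0.12 in pair 1 and -0.15 in pair 2. Lower in both pairs were 13 of the 27, against 25.69% of all genes. Among them GATA1 stood at -0.16, the heme synthesis gene ALAS2 at -0.33 and the transferrin receptor gene TFRC at -0.04, none called. The summed level of the list was 3704 and 5317 CPM in WT and 3630 and 4715 CPM in P95H, so replicate 2 was the higher in each genotype.

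The falls included a cluster at the ribosomal DNA on the short arm of chromosome 21. Of the miRNA and rRNA genes between 8208473 and 8987178 (plus strand, GRCh38), 5 passed the filter in libraries of both genotypes, and MIR3648-1, MIR3687-1, FP671120.5, FP671120.1 and MIR3648-2 were each called lower, by 0.61 to 0.66 on the log2 scale. The only other one tested, RNA5-8S5, was kept by the filter through its WT libraries alone and is described apart from these. Ribosomal DNA is transcribed as a long precursor that is cut into 18S, 5.8S and 28S rRNA, and MIR3648 and MIR3687 lie in its external spacer. RefSeq (GRCh38.p14) places MIR3648-1 within the precursor gene RNA45SN2.

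MIR3648-1 had the highest CPM of them, with 276 CPM in WT and 155 CPM in P95H in pair 1 and 263 and 188 CPM in pair 2. Both P95H libraries lay below both WT libraries, and the WT libraries were alike (log2 change -0.66, SE 0.08, edgeR adjusted p 0.000155). MIR3687-1, which starts 192 bases after the end of MIR3648-1, went from 103 to 56.1 CPM and from 90.4 to 71.4 CPM (-0.61, SE 0.10, edgeR adjusted p 0.00213). RNA5-8S5, a 5.8S rRNA gene, stood at 1.43 CPM in WT and 0.671 CPM in P95H in pair 1 and at 2.38 and 0.973 CPM in pair 2 (-1.21). Neither P95H library reached 1 CPM, so it was tested only because WT was high, and 1 of the 9 alternative fits also called it. Summed over these and RNA5-8S5, the level was 468 CPM in WT and 259 CPM in P95H in pair 1, and 436 and 322 CPM in pair 2.

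The groups did not overlap for the 5 genes that passed the filter in both genotypes. Over all genes tested, whichever way they changed, 10.5% had groups that did not overlap with P95H lower. The 5 genes were called on these same values, so this share is no test of them. The ribosomal DNA genes lie in a repeated sequence whose reads can be split among copies, so they count as measures of 1 source and not as separate ones. The counts are of reads over the gene, whatever RNA they come from, and not of the mature miRNA. The libraries were depleted of rRNA before sequencing. The 2 other rRNA genes tested, the 5S pseudogenes RNA5SP18 and RNA5SP221, stood at -0.10 and -0.09 and were not called. Counted gene by gene, 7 of 180 tested genes on chromosome 21 were called, or 3.889%. They are TMPRSS3, the 5 genes above and RNA5-8S5, which was tested only because WT was high. This share thus counts 1 source several times. On the other chromosomes with a call the share was between 0.09268% and 0.646%.

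The rises included genes of mast cells and basophils. FCER1A (chromosome 1, 159289714 to 159308224, plus strand) encodes the IgE-binding subunit of the high-affinity IgE receptor. It stood at 168 CPM in WT and 222 CPM in P95H in pair 1, and at 99.9 and 120.2 CPM in pair 2, with both replicate 1 libraries above both replicate 2 libraries. The blocked change was 0.33 (SE 0.07, edgeR adjusted p 0.0434), the smallest among the rises. CPA3 (chromosome 3, 148865256 to 148897196, plus strand), the mast cell carboxypeptidase gene, went from 7.16 to 12.6 CPM in pair 1 and from 0.491 to 1.36 CPM in pair 2 (0.91, SE 0.19, edgeR adjusted p 0.0245).

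These were the 2 called of 12 mast cell and basophil genes tested, against 0.191% of all genes called higher. This list too was chosen with earlier results of these data known. In the blocked fit 11 of the 12 were above 0, against 49.58% of all genes, with a median of 0.10. Higher in both pairs were 7 of the 12, against 27.28% of all genes. The medians were 0.22 in pair 1 and 0.13 in pair 2. The summed level went from 1404 to 1624 CPM in pair 1 but from 1801 to 1759 CPM in pair 2. MS4A2, the gene of the receptor's beta subunit, stood at 0.36, FCER1G, that of its gamma subunit, at 0.16, and IL1RL1, the interleukin-33 receptor gene, at 0.26, none called. HDC, which makes histamine and had the highest CPM of the list at 486 to 765 CPM, stood at 0.08. KIT, the stem cell factor receptor gene, was higher in P95H in pair 1 (0.56) and lower in pair 2 (-0.60). The 5 members that did not pass the filter, TPSB2, PRG2, EPX, CLC and CMA1, reached at most 1.01 CPM in any library. Of these CMA1, the chymase gene, had 9 and 16 counts in WT and 1 and 3 in P95H, and EPX had 13 and 13 in WT and 9 and 8 in P95H.

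**Figure D3:**
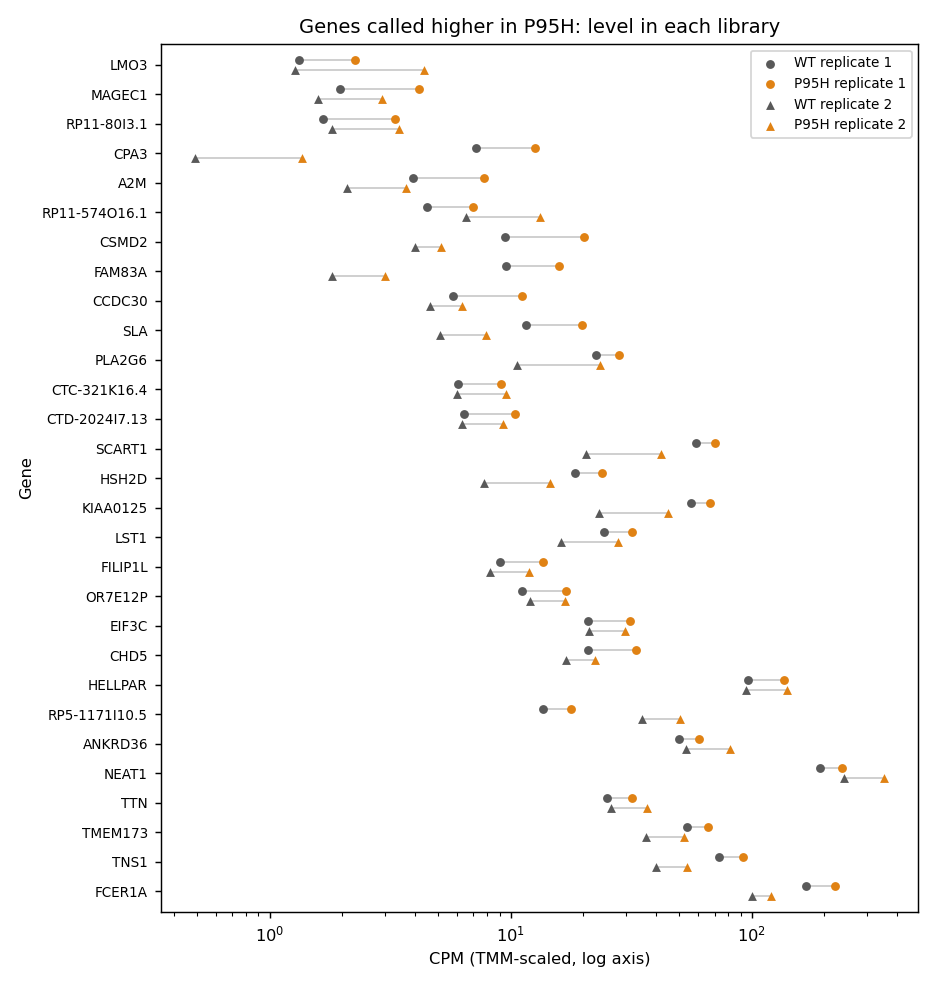
TMM-scaled CPM (log axis) of the 29 genes called higher in P95H in each of the 4 libraries, ordered by the size of the blocked change from LMO3 (1.33) to FCER1A (0.33). Grey is WT and orange P95H, circles are replicate 1 and triangles replicate 2, and lines join the libraries of a pair. The orange point lies to the right of its grey partner in both pairs of every gene, and CPA3, FAM83A and FCER1A show replicate 1 above replicate 2 in both genotypes.

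LST1, SLA, HSH2D, TMEM173 and SCART1 were also called higher, and are described together without a list that holds them. LST1, a leukocyte-specific gene, went from 24.4 CPM in WT to 31.8 CPM in P95H in pair 1 and from 16.2 to 27.9 CPM in pair 2, with groups that did not overlap (0.58, SE 0.11, edgeR adjusted p 0.00913). SLA, the gene of an SRC-like adaptor that dampens receptor signalling, went from 11.5 to 19.8 CPM and from 5.08 to 7.88 CPM (0.72). HSH2D, which encodes an SH2-domain adaptor of haematopoietic cells, rose by 0.61. TMEM173, the gene of the cytosolic DNA sensor adaptor STING, went from 53.8 to 65.5 CPM and from 36.4 to 52.1 CPM (0.40, SE 0.09, edgeR adjusted p 0.0309). SCART1, annotated in the table as a unitary pseudogene, rose by 0.63, with 58.7 to 70.2 CPM in pair 1 and 20.5 to 42.1 CPM in pair 2.

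Of 18 interferon-stimulated genes tested none was called, 12 were below 0 and none was higher in both pairs. Over all genes 50.42% were below 0 and 27.28% were higher in both pairs. Of 7 myeloid genes tested 6 were above 0, against 49.58% of all genes, and none was called. The median was 0.18, made of 0.02 in pair 1 and 0.29 in pair 2. CD33 stood at 0.23, AIF1 at 0.21 and SPI1, the PU.1 gene, at 0.29. The summed level of these 7 was 295 and 200.4 CPM in WT and 329 and 239 CPM in P95H. The other 15 myeloid markers did not pass the filter, with ELANE and FCN1 at 0 counts in all 4 libraries and MPO and CD14 at no more than 5 counts in any. Lymphoid genes (5 of 19 tested) and epithelial, endothelial and fibroblast genes (6 of 18 tested) held no call either. Their summed levels were 14.1 to 16.2 CPM and 281 to 406 CPM, and LCK, EPCAM and KRT19 were at 0 counts throughout. The part of these markers in the changes above was not tested.

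The largest rise was in LMO3, a LIM-only transcriptional cofactor gene, at 1.32 CPM in WT and 2.27 CPM in P95H in pair 1 and 1.28 and 4.39 CPM in pair 2 (log2 change 1.33, SE 0.25, edgeR adjusted p 0.0105). MAGEC1, a cancer-testis antigen gene, went from 1.96 to 4.18 CPM and from 1.60 to 2.92 CPM (0.99). It was the called member of 10 tested MAGE and cancer-testis genes, against 0.191% of all genes called higher. Of the 10, 8 were below 0, against 50.42% of all genes. CSMD2 and FAM83A rose by 0.81 and 0.73, CSMD2 from 9.50 to 20.2 CPM in pair 1 but from 4.00 to 5.16 CPM in pair 2. PLA2G6, a calcium-independent phospholipase gene, went from 22.58 to 28.04 CPM and from 10.7 to 23.4 CPM (0.70). CHD5, a chromatin remodeller gene, rose by 0.54, TNS1, a focal adhesion gene, by 0.38, FILIP1L by 0.57 and CCDC30 by 0.72.

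TTN, the giant sarcomere gene, stood at 25.1 CPM in WT and 31.8 CPM in P95H in pair 1 and at 26.0 and 36.8 CPM in pair 2 (0.42). Its antisense partner TTN-AS1 also stood at 0.42 without a call, and without strand in the counting the reads of such partners cannot be told apart. Of the 59 called genes 17 overlap another tested gene, 14 of them on the opposite strand and 4 on the same one. The limit on strand holds for these too. NCR3, opposite LST1, stood at 0.53 and CTA-228A9.4, opposite PLA2G6, at 0.75, while TG, opposite SLA, stood at -0.62, none called. EIF3C, a subunit gene of translation initiation factor 3, went from 20.9 to 31.3 CPM and from 21.1 to 29.7 CPM (0.54, SE 0.10, edgeR adjusted p 0.00901). Its near-identical copy EIF3CL, at 2.82 to 4.65 CPM, stood at -0.09, so how reads were split between the copies bears on both values. ANKRD36 rose by 0.44, and its copies ANKRD36B and ANKRD36C stood at 0.34 and 0.38 (edgeR adjusted p 0.3684 and 0.0573).

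Noncoding genes were among the rises. Of the 29 rises 10 (34.5%) were not protein-coding, against 6 of the 30 falls and 21.3% of all genes tested. Those 6 falls are all ribosomal DNA genes, which count as measures of 1 source. They include the gene that was tested only because WT was high. No noncoding gene outside the ribosomal DNA was called lower. NEAT1, the scaffold of nuclear paraspeckles, stood at 192 CPM in WT and 236 CPM in P95H in pair 1 and at 241 and 353 CPM in pair 2 (0.43, SE 0.08, edgeR adjusted p 0.00913). MALAT1, its neighbour on chromosome 11, stood at 0.26 (SE 0.09, edgeR adjusted p 0.288). HELLPAR, a very long RNA from chromosome 12 (102197585 to 102402596, plus strand), had WT libraries at 96.2 and 94.8 CPM and P95H libraries at 136 and 139 CPM. It was thus alike in the replicates of a genotype and separated the genotypes fully (0.53, SE 0.07, edgeR adjusted p 0.000636). KIAA0125, a noncoding RNA gene, went from 55.8 to 67.1 CPM and from 23.3 to 44.8 CPM (0.59). Of the 12 abundant nuclear noncoding RNAs tested 10 were above 0, against 49.58% of all genes, with a median of 0.08. NEAT1 was the called member, against 0.191% of all genes called higher.

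Several classes of genes without a coding product had medians above 0 in both pairs. The median difference was 0.14 in pair 1 and 0.12 in pair 2 over 896 antisense genes, and 0.13 and 0.12 over 672 lincRNA genes. It was 0.21 and 0.17 over 192 sense-intronic genes, while the 11938 protein-coding genes had medians of -0.01 and -0.02, which upper-quartile scaling turned to 0.01 in both pairs. In the antisense class 402 genes were higher in both pairs and 104 lower in both. Over all genes tested 27.28% were higher in both pairs and 25.69% lower in both. Called higher were 2 antisense genes (0.223%) and 5 lincRNA genes (0.744%), against 0.191% of all genes, and no gene of either class was called lower. They also have low counts, with a median log2 CPM of 1.08 for antisense genes against 4.99 for protein-coding ones. Among genes whose mean log2 CPM reached 2, the medians were 0.10 and 0.12 for antisense and 0.09 and 0.06 for lincRNA genes. Low counts went with higher medians in other classes too: over the 4055 genes of any class with a mean log2 CPM under 2 the medians were 0.10 and 0.13, and over the 1703 protein-coding genes among them 0.04 and 0.07.

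**Figure D4:**
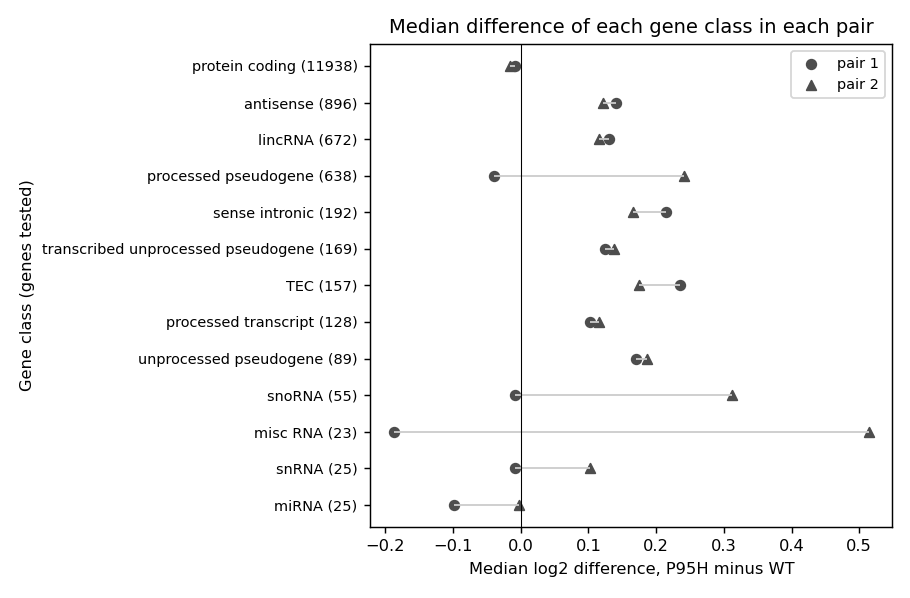
Median log2 difference P95H minus WT of each gene class, with the number of genes tested in parentheses, in pair 1 (circles) and pair 2 (triangles). Antisense, lincRNA, sense-intronic, TEC, processed transcript and unprocessed pseudogene classes lie above 0 in both pairs, whereas processed pseudogenes, snoRNA, misc RNA and snRNA genes differ in sign between the pairs.

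Genes awaiting experimental evidence (TEC), with medians of 0.24 and 0.18, processed transcripts, with 0.10 and 0.12, and unprocessed pseudogenes, with 0.17 and 0.19, were also above 0 in both pairs. Processed pseudogenes had medians of -0.04 in pair 1 and 0.24 in pair 2, snoRNA genes of -0.01 and 0.31, and the 23 genes of miscellaneous small RNA of -0.19 and 0.51, so these differed in sign between the pairs. The 25 miRNA genes, of which 5 are the ribosomal DNA genes above, had medians of -0.10 and 0.00. RN7SK, the small nuclear RNA that holds P-TEFb inactive, stood at -0.19 in pair 1 and 0.13 in pair 2.

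The called genes also differed between the replicates. Of the 30 falls, 24 were higher in replicate 2 than in replicate 1 in both genotypes, which is 80% against 36.93% of all genes. Of the 29 rises, 18 were lower in replicate 2 in both genotypes, or 62.07% against 36.7% of all genes. The median replicate 2 minus replicate 1 difference of the falls was 0.91 in WT and 0.69 in P95H, larger than their median change of -0.65 with genotype. The P95H and WT libraries did not overlap for 16 of the 29 rises and 10 of the 30 falls. Of these 10 falls, 6 are ribosomal DNA genes, which count as measures of 1 source. They include the gene that was tested only because WT was high. Over all genes, whichever way they changed, the groups did not overlap for 11% with P95H higher and for 10.5% with P95H lower. These are 1667 genes, where 7520 were above 0, and 1600 genes, where 7647 were below 0. The called genes were selected for their difference in these same libraries, so their shares only describe them. The mitochondrial share of counts moved with the replicate number too, and the part of the replicate difference in these calls was not tested.

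The remaining lists of related genes held almost no calls, as the plot of list medians shows. Over 36 lists, 638 of 774 symbols were tested. The lists of hnRNPs (26 tested), U2 snRNP and splice site factors (18), SR protein kinases (9), nonsense-mediated decay factors (19) and genes known from other work to be mis-spliced with mutant SRSF2 (10) had no call, and their medians lay between -0.02 and 0.05, or between 0.01 and 0.08 with upper-quartile scaling. In the last of these HNRNPA2B1 stood at 0.10 and GNAS at -0.16. DNA replication and mitosis genes (26 tested) had a median of -0.05, and MKI67 stood at 0.34 in pair 1 and -0.22 in pair 2. Of 23 cholesterol synthesis genes 20 were above 0, against 49.58% of all genes, yet the median was -0.03 in pair 1 and 0.19 in pair 2. Nuclear oxidative phosphorylation genes, 24 of 28 below 0 against 50.42% of all genes, had medians of -0.16 and 0.01. Ribosomal protein genes (29 tested) had a median of 0.00, and 27 haematopoietic transcription factor genes one of -0.03, with RUNX1 at -0.09 and GATA2 at 0.05. In all 16 lists had a median below 0 in both pairs and 6 a median above 0 in both.

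**Figure D5:**
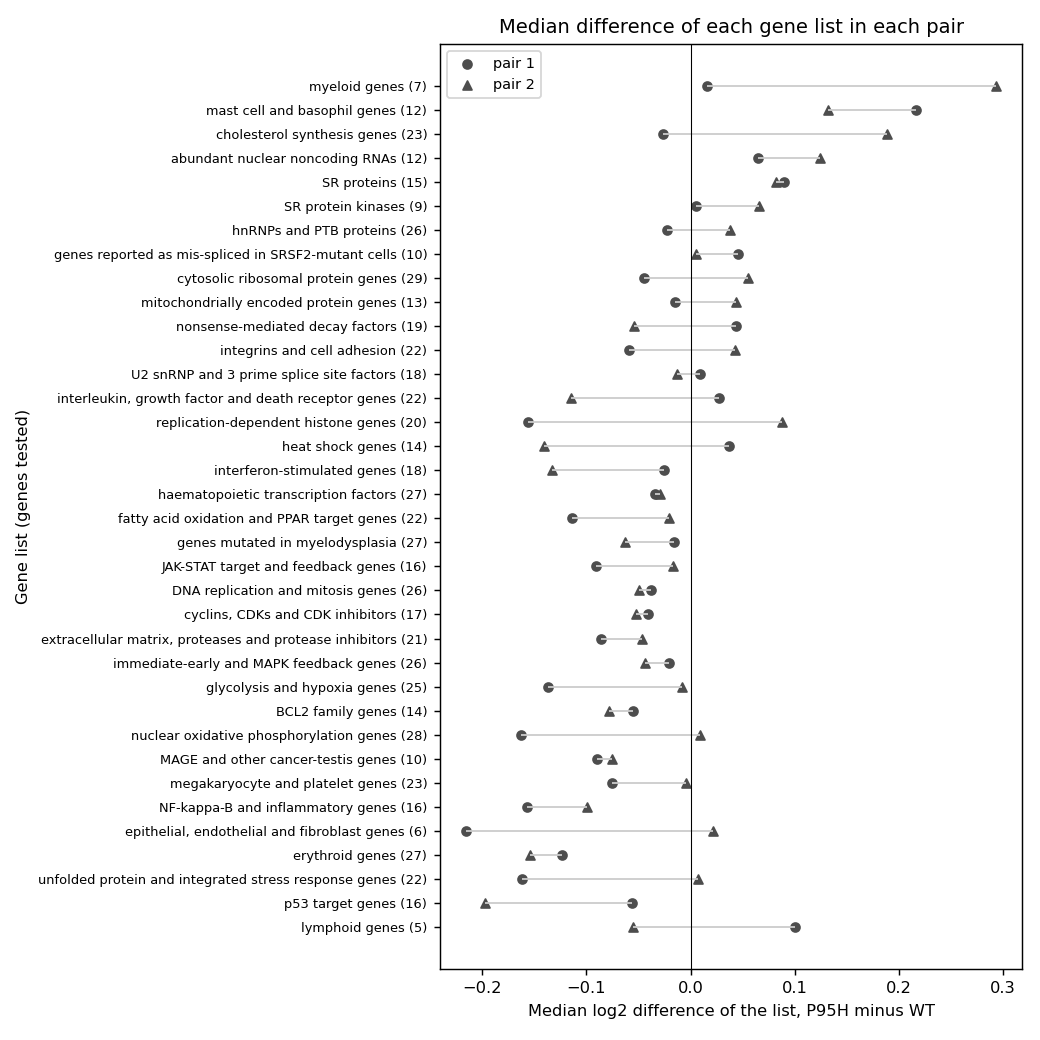
Median log2 difference P95H minus WT of each of 36 gene lists, with the number of genes tested in parentheses, in pair 1 (circles) and pair 2 (triangles). The mast cell and basophil list lies above 0 in both pairs (0.22 and 0.13) and the erythroid list below 0 in both (-0.12 and -0.15), while others, such as cholesterol synthesis, cross 0 between the pairs.

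Binding by SRSF2 was measured in the series by HITS-CLIP, which sequences the RNA fragments crosslinked to an immunoprecipitated protein, in WT and P95H cells given doxycycline for 36 hours. The authors' deposited table lists 8100 windows whose SRSF2 binding differed between P95H and WT. It placed a window in 6 of the 29 rises (20.69%) and 3 of the 30 falls (10.0%), against 13.03% of all tested genes. A window with less binding in P95H lay in 17.24% of rises, 3.333% of falls and 9.072% of all tested genes. One with more binding lay in 6.897%, 10.0% and 5.519%. Tested genes with a window had a median log2 CPM of 6.308, against 4.287 over all tested genes. The part of RNA level in these shares was not tested. In the authors' deposited table HELLPAR had 6 windows, none overlapping another, all with more binding in P95H at log2 changes of 1.67 to 5.14. EIF3C had 8 windows that merge into 2 regions and CHD5 had 6 that merge into 4, all with less binding in P95H. The window of smallest adjusted p in each region was at -3.09 and -1.75 for EIF3C and between -2.09 and -1.17 for CHD5 in the authors' deposited table. Both of these genes rose in RNA as HELLPAR did. LST1, which also rose, had less binding there, at -2.35, and KIAA0125 was listed at 0 CPM in P95H against 1.28 CPM in WT in the authors' deposited table. Among the falls, the THBS1 window was at 3.58 and the PLEK window at 1.1 in the authors' deposited table, while PRKCB had 1 window at -1.4 and 1 at 2.48. NEAT1 had 3 windows, from -1.54 to 2.9 in the same deposited table of the authors. Over the 1275 genes whose median window had less binding in P95H the median RNA change was -0.01, and over the 701 genes whose median window had more it was 0.00.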

How the data were processed

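The authors deposited the RNA-seq values as whole-number counts for each Ensembl gene, with GRCh38 coordinates. Tools listed, without roles, in the submitters' processing notes are edgeR, TopHat2 2.0.14 and STAR 2.5.3a. Not given in the sources used here are the counting program, its use of strand and the annotation release. The table also held 1 count column that was not used. The HITS-CLIP windows came with the authors' log2 change and adjusted p-value, both as deposited, and with mean CPM per genotype, also computed and deposited by the authors. Those values were only copied and counted.

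Genes with at least 1 CPM in 2 of 4 libraries were scaled by TMM (Python 3.11.15 for tables, R 4.3.3, edgeR 4.0.16, limma 3.58.1, DESeq2 1.42.0) and tested two-sided with edgeR's quasi-likelihood test on genotype with the replicate number as a block, at a Benjamini-Hochberg adjusted p under 0.05 over all genes. Printed CPM are scaled by TMM, with a prior count of 2 on the log2 scale. The test was run on simulated counts first. Same-numbered libraries deviated from their genotype's mean together (r = 0.7003 across genes). The labels do not say what a number stands for.

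The members, the lists and the pairing were chosen with earlier results of these data known. Genes named are SRSF2, the 15 largest rises and falls among genes whose mean log2 CPM reached 1 and whose sign agreed between pairs, the 10 smallest adjusted p, and up to 4 called members of each list, or 2 where none was called. The other called genes, and other list members named with values, were added after their values were seen. Lists are described by counts and medians. Alternatives were other scalings, filters and tools, the fit without the block, and each pair alone. The medians of gene classes under other scalings and levels were added after seeing the data.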

Additional observations from a re-analysis of the deposited data

How the results depend on the processing

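The replicate block decided the calls, since without the block edgeR called 0 genes higher and 0 lower against 29 and 30 with it, and this rests on 2 pairs that share a number. Without a filter on low counts edgeR with the block called 0 and 0. It had 1882 genes at an unadjusted p under 0.05 out of 38948, where 1947.4 would be 5%. DESeq2 size factors gave 5 higher and 13 lower, upper-quartile normalization 22 and 17, the DESeq2 Wald test with the block 2 and 6 (with 1177 genes lacking an adjusted p), and a filter of 1 CPM in all 4 libraries 8 and 12. The limma-voom fit (33 and 34), the earlier quasi-likelihood method (25 and 26) and filterByExpr (33 and 39) stayed within 1.5 times of the main counts. The cause of the lower counts was not tested, but the prior degrees of freedom went from 22.69 to 13.99 with DESeq2 size factors and to 6.626 without a filter. The replicate block changed no sign among the 59 called genes. Leaving out a pair leaves 1 library per genotype and no test. PRSS23 stood at 0.008 without replicate 2, turning its direction, and at -1.518 without replicate 1, and the other 58 kept theirs without either pair. The 59 genes were selected in these same libraries, so a kept sign here is no test of a call. The size moved by more than the error of a single pair, taken from the blocked fit, for 24 of the 59 without replicate 1 and for 28 without replicate 2. Upper-quartile normalization turned the median of protein-coding genes to 0.012 in pair 1 and 0.013 in pair 2, and it moved the median over all genes by 0.0249 in the blocked fit, 0.021 in pair 1 and 0.028 in pair 2. Genes with few counts had the widest errors, and a 3-count floor lay at 0.0667 to 0.0788 CPM.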
